A study of Homo sapiens with 36 samples.

Results

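DNA methylation in mammalian cells is written by the DNA methyltransferases DNMT1, DNMT3A and DNMT3B with their cofactors DNMT3L and UHRF1, and it is undone by the dioxygenases TET1, TET2 and TET3. These 8 genes were taken by name, with earlier results of these data known. Each was found in all 3 expression files of the series, which list 16431, 17035 and 16459 genes. The series asked how blocking the histone demethylases KDM6A and KDM6B, which remove the repressive mark H3K27me3, changes the response of cisplatin-resistant testicular germ cell tumor cells to cisplatin. It holds 36 RNA-seq libraries of human embryonal carcinoma lines, in 3 experiments of 12 libraries, each with 4 arms of 3 libraries. The series' design text calls the 3 libraries of an arm biological triplicates, so p-values measure the spread between such cultures of 1 clone.

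In the first experiment NT2/D1-A4 cells received no drug (Control), Cisplatin (0.5 µM, 6 h), a pretreatment of 3 days with GSK-J4 (1 µM), or both, GSK-J4 first. The study describes Control as an untreated vehicle control, and it is called untreated here. GSK-J4 is a small molecule inhibitor of KDM6A and KDM6B. The second experiment applied the same 4 arms to 2102EP-C1 cells. In the third, 2102EP-C1 cells carried either the empty lentiviral vector pLKO.1 or hairpins against both demethylases (sh6A+6B), each without or with 0.5 µM Cisplatin for 6 h, and no GSK-J4 was given. The study gave PBS to the cultures without Cisplatin in this experiment, and pLKO.1 cells with PBS are also called untreated. All groups share acquired cisplatin resistance, and each line is 1 resistant clone, so nothing here separates a clone's own features from those of its parent line. RNA was collected the day after cisplatin.

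In the textbook account, DNMT1 copies methylation onto the new DNA strand behind the replication fork, where UHRF1 recruits it by binding hemimethylated CpG. DNMT3A and DNMT3B add methylation to unmethylated CpG, DNMT3L stimulates both without having catalytic activity of its own, and the TET enzymes oxidize 5-methylcytosine so that it can be removed. Pluripotent cells and embryonal carcinoma cells are known for high DNMT3B, DNMT3L and TET1. RNA was measured in these libraries, and protein and DNA methylation were not analysed here.

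The libraries held 26842718 to 49521740 reads in the NT2/D1-A4 experiment, 30250275 to 53645086 in the 2102EP-C1 GSK-J4 experiment and 79382033 to 100872653 in the knockdown experiment. KDM6A lay between 7.15 and 7.17 log2 CPM in the pLKO.1 libraries and between 6.09 and 6.20 in the sh6A+6B libraries, and KDM6B between 4.61 and 4.66 against 3.51 and 3.75. Both targets of the hairpins fell by 1.01 on the log2 scale (limma, adjusted p = 2.1e-18 for KDM6A and 1.8e-14 for KDM6B). With GSK-J4, which blocks the enzymes and not their RNA, KDM6B rose by 0.88 in NT2/D1-A4 and by 0.81 in 2102EP-C1 cells. All 10 embryonal carcinoma markers examined, among them POU5F1, SOX2 and NANOG, averaged above 1 CPM in every arm. Of 17 markers of other cell types 9, 8 and 7 were listed in the 3 files, and 6 or 7 averaged above 1 CPM in each arm. The summed level of these other markers stayed between 41.9 and 62.2 CPM in all 36 libraries, against 5254 to 8414 CPM for the embryonal carcinoma markers.

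Levels between genes were compared per kilobase of the MANE Select transcript. In all 3 untreated groups DNMT3B was the most abundant of the 8, at 8.64 ± 0.02 log2 CPM per kb (SD, n = 3) in NT2/D1-A4 Control, 9.60 ± 0.04 in 2102EP-C1 Control and 9.43 ± 0.01 in pLKO.1 cells. DNMT1 came next, at 6.07 ± 0.04, 6.09 ± 0.01 and 6.10 ± 0.01 log2 CPM per kb in the same order. Most active methyltransferase RNA of these cells was DNMT3B. Of the summed per-kilobase CPM of DNMT1, DNMT3A and DNMT3B, DNMT3B made up 83.1% ± 0.2 in NT2/D1-A4 Control, 89.4% ± 0.3 in 2102EP-C1 Control and 88.3% ± 0.02 in pLKO.1 cells (SD, n = 3).

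TET1 followed at 4.52 ± 0.06, 5.05 ± 0.03 and 5.15 ± 0.02 log2 CPM per kb and was the leading TET gene, with 85.1%, 92.1% and 92.8% of the per-kilobase CPM of the 3 TET genes. UHRF1 stood at 4.50 ± 0.02 in NT2/D1-A4 Control, within the spread of TET1 there, and at 3.87 ± 0.02 and 3.52 ± 0.01 log2 CPM per kb in the untreated 2102EP-C1 groups. DNMT3A reached 3.76 ± 0.03, 4.56 ± 0.03 and 4.54 ± 0.01, and DNMT3L 3.20 ± 0.05, 3.94 ± 0.03 and 3.91 ± 0.02. So UHRF1 ranked above DNMT3A in NT2/D1-A4 cells and below DNMT3A and DNMT3L in the 2102EP-C1 cells. TET3 and TET2 were the lowest, with TET2 at -0.08 ± 0.10, -1.85 ± 0.06 and -2.10 ± 0.10 log2 CPM per kb. Each file was normalized on its own, so levels set across experiments were not tested.

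**Figure D1:**
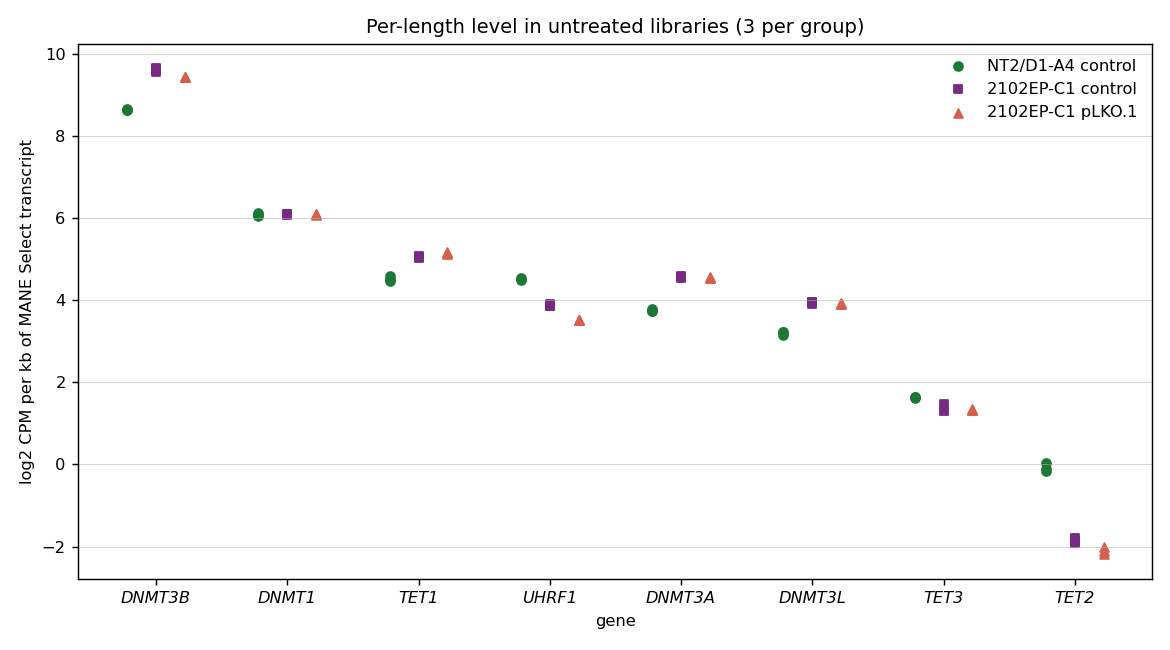
Level of each gene in the untreated libraries, in log2 CPM per kb of the MANE Select transcript (vertical axis), by gene (horizontal axis), with 1 point for each of 3 libraries and a symbol for each untreated group. DNMT3B sits at 8.64 to 9.60 on average and TET2 at -0.08 to -2.10.

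In the main comparison, of GSK-J4 or sh6A+6B with untreated cells, UHRF1 fell in all 3 experiments and DNMT3B with GSK-J4 in both lines. DNMT3L fell with GSK-J4 in NT2/D1-A4 and with sh6A+6B, and TET1 fell in NT2/D1-A4 only. DNMT1, DNMT3A, TET2 and TET3 passed the limits in no experiment. A gene is said to rise or fall where its fold was over 1.3 and its Benjamini-Hochberg adjusted p from limma, over all genes of the file, was under 0.05. By these limits GSK-J4 lowered 4 of the 8 genes in NT2/D1-A4, where 6.48% of all genes fell. GSK-J4 lowered 2 of 8 in 2102EP-C1, against 3.12% of all genes, and sh6A+6B lowered 2 of 8, against 5.74%. No member rose in any of these 3 comparisons. The median log2 fold change of the 8 genes was -0.34, -0.15 and -0.19, beside 0.00836, -0.00166 and -0.00474 for all genes. In bulk RNA, fewer cells of a type and less RNA per cell cannot be told apart.

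**Figure D2:**
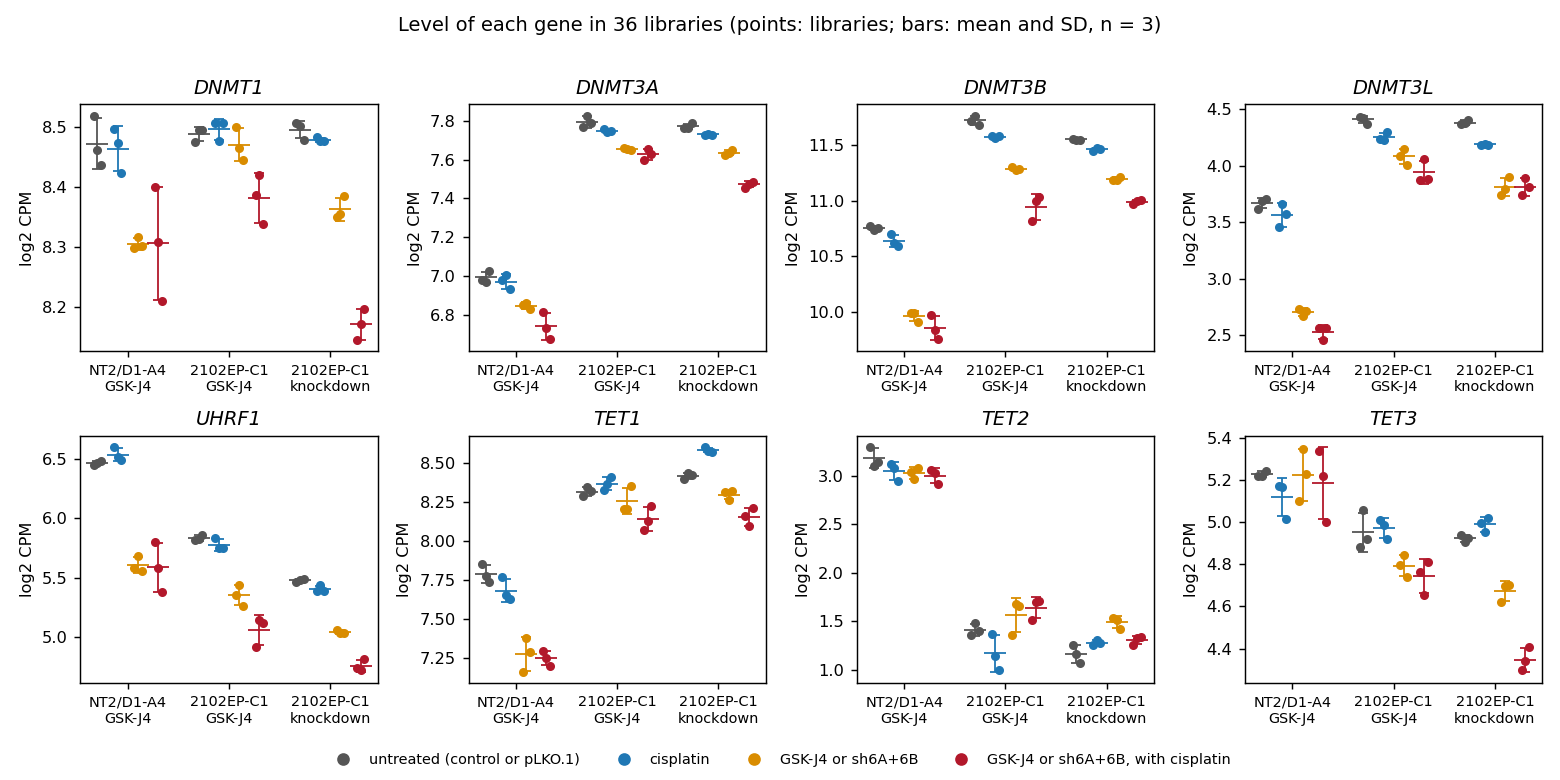
Log2 CPM (vertical axis) of each of the 8 genes in its own panel, by experiment and arm (horizontal axis), with 1 point per library and bars for the mean and SD of 3 libraries. The vertical scale differs between panels. In the DNMT3A, DNMT3B, DNMT3L and UHRF1 panels the libraries with GSK-J4 or sh6A+6B alone lie below the untreated ones in each experiment. In the single experiments 29.2%, 20.8% and 29.9% of all genes showed this. The share of all genes that showed it in all 3 was not counted.

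UHRF1 (gene 29128, chr19:4903080-4962154, plus strand, GRCh38.p14) encodes the reader of hemimethylated CpG that brings DNMT1 to replicating DNA, and DNMT1 (gene 1786, chr19:10133346-10194953, minus strand) encodes the maintenance methyltransferase itself. The 250 bases before the transcript start of both are shown because the proteins work as a pair, while UHRF1 RNA passed the limits and DNMT1 RNA did not. They are RefSeq GRCh38.p14 sequence, chr19:4909251-4909500 on the plus strand for UHRF1 and chr19:10194954-10195203 on the minus strand for DNMT1, with capitals for matches on either strand to an E2F motif (TTTCCCGC, TTTCGCGC, TTTGCCGC or TTTGGCGC), a GC box (GGGCGG) or a CCAAT box (CCAAT).
UHRF1: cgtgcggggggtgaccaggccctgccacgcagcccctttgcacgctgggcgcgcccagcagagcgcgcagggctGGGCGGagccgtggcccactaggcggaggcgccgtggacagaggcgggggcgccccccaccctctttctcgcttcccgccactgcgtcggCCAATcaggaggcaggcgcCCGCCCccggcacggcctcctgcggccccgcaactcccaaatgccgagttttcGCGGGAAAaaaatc
DNMT1: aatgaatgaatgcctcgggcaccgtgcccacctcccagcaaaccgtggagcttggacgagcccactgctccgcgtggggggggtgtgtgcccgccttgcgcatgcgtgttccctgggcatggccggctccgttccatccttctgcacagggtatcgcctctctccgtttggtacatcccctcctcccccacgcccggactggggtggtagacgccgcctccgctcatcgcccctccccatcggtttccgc
The UHRF1 window holds 1 E2F match, beginning 14 bases before the start, 2 GC boxes and 1 CCAAT box, and it has 28 CpG. The DNMT1 window has 21 CpG and none of these letters. Of 35116 windows of the same length 2.79% hold an E2F match, 42.6% a GC box and 32.0% a CCAAT box, and the median window has 11 CpG.

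UHRF1 measured 6.45, 6.46 and 6.49 log2 CPM in the NT2/D1-A4 Control libraries and 5.58, 5.69 and 5.55 after GSK-J4. In 2102EP-C1 the Control libraries stood at 5.82, 5.83 and 5.86 and the GSK-J4 libraries at 5.36, 5.44 and 5.27. In the knockdown experiment it measured 5.47, 5.48 and 5.49 with pLKO.1 and 5.06, 5.04 and 5.03 with sh6A+6B. Every pretreated or knockdown library was below every untreated library of its experiment, a pattern that 29.2%, 20.8% and 29.9% of all genes shared in the 3 experiments. UHRF1 fell by 0.86 ± 0.07 (SE) on the log2 scale in NT2/D1-A4 cells (limma, adjusted p = 9.5e-09), by 0.48 ± 0.05 in 2102EP-C1 cells given GSK-J4 (adjusted p = 5.8e-08) and by 0.43 ± 0.03 with sh6A+6B (adjusted p = 4.5e-12). Its level thus fell by 45.0%, fell by 28.4% and fell by 26.0%.

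DNMT1 stayed under the 1.3-fold limit in every comparison. It measured 8.52, 8.46 and 8.44 log2 CPM in NT2/D1-A4 Control and 8.30, 8.32 and 8.30 after GSK-J4, with no overlap between the groups. The Control and GSK-J4 libraries of 2102EP-C1 did overlap, at 8.47 to 8.496 and 8.45 to 8.5001. The log2 differences were -0.17 ± 0.04 (limma, adjusted p = 0.0025) and -0.02 ± 0.03 (adjusted p = 0.68), and with sh6A+6B -0.13 ± 0.02 (adjusted p = 4.8e-07). The DNMT1 locus shares bases with S1PR2 on the same strand.

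Replication genes moved in the same direction as UHRF1. The summed CPM of 20 S phase genes was 4219 to 4311 in NT2/D1-A4 Control and 3707 to 3762 after GSK-J4, 3524 to 3636 and 3137 to 3195 in 2102EP-C1 cells, and 3346 to 3371 and 2975 to 3014 for pLKO.1 and sh6A+6B. The median log2 change of the list was -0.19, -0.20 and -0.19. Of its 20 genes, CCNE1, the cyclin that starts S phase, fell by 0.49 after GSK-J4 in NT2/D1-A4, none passed the limits after GSK-J4 in 2102EP-C1, and with sh6A+6B the replication licensing factor CDT1 fell by 0.43, GINS2 fell by 0.38 and CCNE2 rose by 0.40. The part of this shift in the UHRF1 result was not tested.

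DNMT3B (gene 1789, chr20:32762385-32809356, plus strand) encodes the de novo methyltransferase of the early embryo. The promoter table lists 1 window for it, chr20:32779602-32779851 on the plus strand of GRCh38.p14, which ends 17467 bases downstream of the MANE Select start and so belongs to an internal start. It is shown beside that of UHRF1 because the levels of these genes ran most closely together, and capitals mark the same motifs.
DNMT3B: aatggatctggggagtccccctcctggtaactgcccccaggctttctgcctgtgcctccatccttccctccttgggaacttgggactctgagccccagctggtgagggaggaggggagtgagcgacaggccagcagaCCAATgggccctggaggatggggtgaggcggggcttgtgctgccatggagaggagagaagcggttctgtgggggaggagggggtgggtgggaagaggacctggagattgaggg
It holds 1 CCAAT box, no E2F or GC box letters, and 3 CpG against 28 for UHRF1.

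DNMT3B measured 10.77, 10.74 and 10.75 log2 CPM in NT2/D1-A4 Control and 9.99, 9.99 and 9.92 after GSK-J4. In 2102EP-C1 cells it measured 11.72, 11.76 and 11.68 in Control and 11.30, 11.27 and 11.28 after GSK-J4. In the knockdown experiment the values were 11.55, 11.55 and 11.54 with pLKO.1 and 11.19, 11.19 and 11.21 with sh6A+6B. The groups did not overlap in any experiment. DNMT3B fell by 0.79 ± 0.05 (SE) in NT2/D1-A4 cells (limma, adjusted p = 7.4e-11) and by 0.43 ± 0.04 in 2102EP-C1 cells (adjusted p = 1.2e-09), so that its level fell by 42.1% and fell by 26.0%. With sh6A+6B the log2 difference was -0.35 ± 0.01 (limma, adjusted p = 7.6e-16), a change of -21.7% that did not reach the 1.3-fold limit.

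The share of DNMT3B in the per-kilobase CPM of the 3 active methyltransferases moved with these values. It was 82.9% to 83.3% in NT2/D1-A4 Control and 75.6% to 76.5% after GSK-J4, and in 2102EP-C1 cells 89.1% to 89.6% and 86.6% to 86.8%. With pLKO.1 it was 88.26% to 88.29% and with sh6A+6B 86.6% to 86.7%. DNMT3B thus remained the main methyltransferase RNA in all 36 libraries, with 74.8% of the sum as its lowest share, in NT2/D1-A4 cells given GSK-J4 and Cisplatin.

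DNMT3A (gene 1788, chr2:25227874-25342590, minus strand) encodes the de novo methyltransferase that most adult tissues use. Its log2 differences were -0.15 ± 0.04, -0.14 ± 0.03 and -0.14 ± 0.02 in the 3 experiments (limma, adjusted p = 0.0042, 0.00051 and 3.0e-07). All 3 stayed under the fold limit, as changes of -9.61% to -8.98% from the untreated level. Its libraries measured 7.77, 7.76 and 7.79 log2 CPM with pLKO.1 and 7.62, 7.64 and 7.65 with sh6A+6B, so the groups did not overlap despite the small difference.

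DNMT3L (gene 29947, chr21:44246339-44261897, minus strand) encodes the catalytically inactive partner of DNMT3A and DNMT3B and is a marker of germ and pluripotent cells. It measured 3.62, 3.69 and 3.70 log2 CPM in NT2/D1-A4 Control and 2.74, 2.67 and 2.71 after GSK-J4. In 2102EP-C1 cells it measured 4.43, 4.42 and 4.37 in Control and 4.09, 4.14 and 4.01 after GSK-J4. It measured 4.36, 4.37 and 4.41 with pLKO.1 and 3.74, 3.80 and 3.90 with sh6A+6B. No pair of groups overlapped. DNMT3L fell by 0.96 ± 0.07 in NT2/D1-A4 cells (limma, adjusted p = 3.4e-09), the furthest of the 8 genes in these 3 comparisons, where its level fell by 48.7%, and by 0.57 ± 0.04 with sh6A+6B (adjusted p = 5.3e-11). The difference with GSK-J4 in 2102EP-C1 cells was -0.33 ± 0.06 (adjusted p = 8.9e-05) and missed the fold limit. DNMT3L had 156 to 544 reads per library in NT2/D1-A4 cells, and the antisense gene DNMT3L-AS1 overlaps it, which counts without a stated strand setting cannot separate.

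TET1 (gene 80312, chr10:68560337-68694487, plus strand) encodes the TET enzyme of pluripotent cells. Its 250 bases before the start, chr10:68560087-68560336 on the plus strand of RefSeq GRCh38.p14, are shown because TET1 was the only TET gene to fall with GSK-J4 alone, and capitals would mark the same motifs.
TET1: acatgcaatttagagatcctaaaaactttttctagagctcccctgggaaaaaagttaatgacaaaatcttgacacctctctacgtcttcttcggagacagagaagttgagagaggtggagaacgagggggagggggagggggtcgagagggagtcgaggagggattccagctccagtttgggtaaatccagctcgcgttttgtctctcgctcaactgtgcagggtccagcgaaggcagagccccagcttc
None of these letters is in the window, which has 9 CpG. TET1 measured 7.85, 7.78 and 7.74 log2 CPM in NT2/D1-A4 Control and 7.17, 7.38 and 7.29 after GSK-J4. It fell by 0.51 ± 0.05 (limma, adjusted p = 1.3e-07) and its level fell by 29.7%, with no overlap between groups. In 2102EP-C1 cells the log2 differences were -0.06 ± 0.04 with GSK-J4 (adjusted p = 0.22) and -0.12 ± 0.02 with sh6A+6B (adjusted p = 7.9e-05), and the difference between the lines was not tested.

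TET2 (gene 54790, chr4:105145875-105279803, plus strand), an enzyme best known from blood cells, was the scarcest member, with 70 to 136 reads per library in the 2102EP-C1 GSK-J4 experiment, 194 to 257 in the knockdown experiment and 200 to 385 in NT2/D1-A4 cells. After GSK-J4 or sh6A+6B alone in 2102EP-C1 its mean was above the untreated mean, and the means of the other 7 genes were below theirs. With sh6A+6B it measured 1.53, 1.51 and 1.42 log2 CPM against 1.26, 1.16 and 1.07 with pLKO.1, a difference of 0.33 ± 0.08 (limma, adjusted p = 0.0011) under the fold limit. With GSK-J4 the differences were 0.16 ± 0.13 in 2102EP-C1 (adjusted p = 0.38) and -0.15 ± 0.08 in NT2/D1-A4 cells (adjusted p = 0.12). The antisense gene TET2-AS1 overlaps TET2.

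TET3 (gene 200424, chr2:73983631-74135498, plus strand) encodes the oxidase known from the oocyte and from neural tissue. In NT2/D1-A4 cells it measured 5.22, 5.22 and 5.24 log2 CPM in Control and 5.10, 5.35 and 5.23 after GSK-J4, overlapping, with a difference of -0.00354 ± 0.07 (limma, adjusted p = 0.97; 95% confidence interval -0.16 to 0.15). The differences in 2102EP-C1 cells were -0.16 ± 0.05 with GSK-J4 (adjusted p = 0.023) and -0.25 ± 0.03 with sh6A+6B (adjusted p = 8.5e-07). Neither reached the fold limit.

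Cisplatin alone left the 8 genes within the limits. None passed in any experiment, where 2.45%, 1.07% and 3% of all genes passed in either direction. With voom weights the limma count was also 0 in each, and at an unadjusted p under 0.05 it was 2, 2 and 5 of 8, against 24.7%, 16.7% and 44.4% of all genes. The log2 differences ran from -0.13 to 0.07 in NT2/D1-A4, from -0.24 to 0.05 in 2102EP-C1 and from -0.19 to 0.17 in pLKO.1 cells. By adjusted p alone, with no fold limit, 0, 1 and 4 of the 8 genes were under 0.05, against 9.43%, 4.08% and 36.1% of all genes. The 4 in pLKO.1 cells were DNMT3B at -0.09 (limma, adjusted p = 2.4e-05), DNMT3L at -0.19 (adjusted p = 0.00076), UHRF1 at -0.08 (adjusted p = 0.035) and TET1 at 0.17 (adjusted p = 2.4e-06). The 1 in 2102EP-C1 cells was DNMT3B at -0.15 (limma, adjusted p = 0.025).

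The other values with cisplatin alone were not past either limit. In pLKO.1 cells they were DNMT1 at -0.02, DNMT3A at -0.04, TET2 at 0.12 and TET3 at 0.07. In 2102EP-C1 cells they were DNMT1 at 0.00809, DNMT3A at -0.05, DNMT3L at -0.16, UHRF1 at -0.06, TET1 at 0.05, TET2 at -0.24 and TET3 at 0.02. In NT2/D1-A4 the log2 differences were DNMT1 at -0.00831, DNMT3A at -0.02, DNMT3B at -0.11, DNMT3L at -0.11, UHRF1 at 0.07, TET1 at -0.11, TET2 at -0.13 and TET3 at -0.11.

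In cells that had received GSK-J4 or sh6A+6B, cisplatin again passed the limits for none of the 8 genes, against 0.377%, 2.22% and 3.52% of all genes. The count with limma's voom weights was 0 as well, and the unadjusted p was under 0.05 for 3, 5 and 7 of 8, against 14.6%, 29.3% and 51% of all genes. In NT2/D1-A4 cells no member had an adjusted p under 0.05 and a lower level, as 0.548% of all genes did. After GSK-J4 in 2102EP-C1 4 members did, against 8.1% of all genes: DNMT3B at -0.34, UHRF1 at -0.29, TET1 at -0.11 and DNMT1 at -0.09. In sh6A+6B cells 6 did, against 22.7% of all genes. Among them were TET3 at -0.33 ± 0.03 (limma, adjusted p = 2.1e-08), UHRF1 at -0.29 ± 0.03 (adjusted p = 1.2e-08) and DNMT3B at -0.20 ± 0.01 (adjusted p = 4.0e-11), and the others DNMT1 at -0.19, DNMT3A at -0.16 and TET1 at -0.14. TET2 stood at -0.18 (adjusted p = 0.061) and DNMT3L at 0.00462 ± 0.04 (adjusted p = 0.94). The remaining values after GSK-J4 were DNMT3A at -0.03, DNMT3L at -0.14, TET2 at 0.07 and TET3 at -0.05 in 2102EP-C1. In NT2/D1-A4 they were DNMT1 at 0.000897, DNMT3A at -0.11, DNMT3B at -0.11, DNMT3L at -0.18, UHRF1 at -0.02, TET1 at -0.03, TET2 at -0.03 and TET3 at -0.04.

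**Figure D3:**
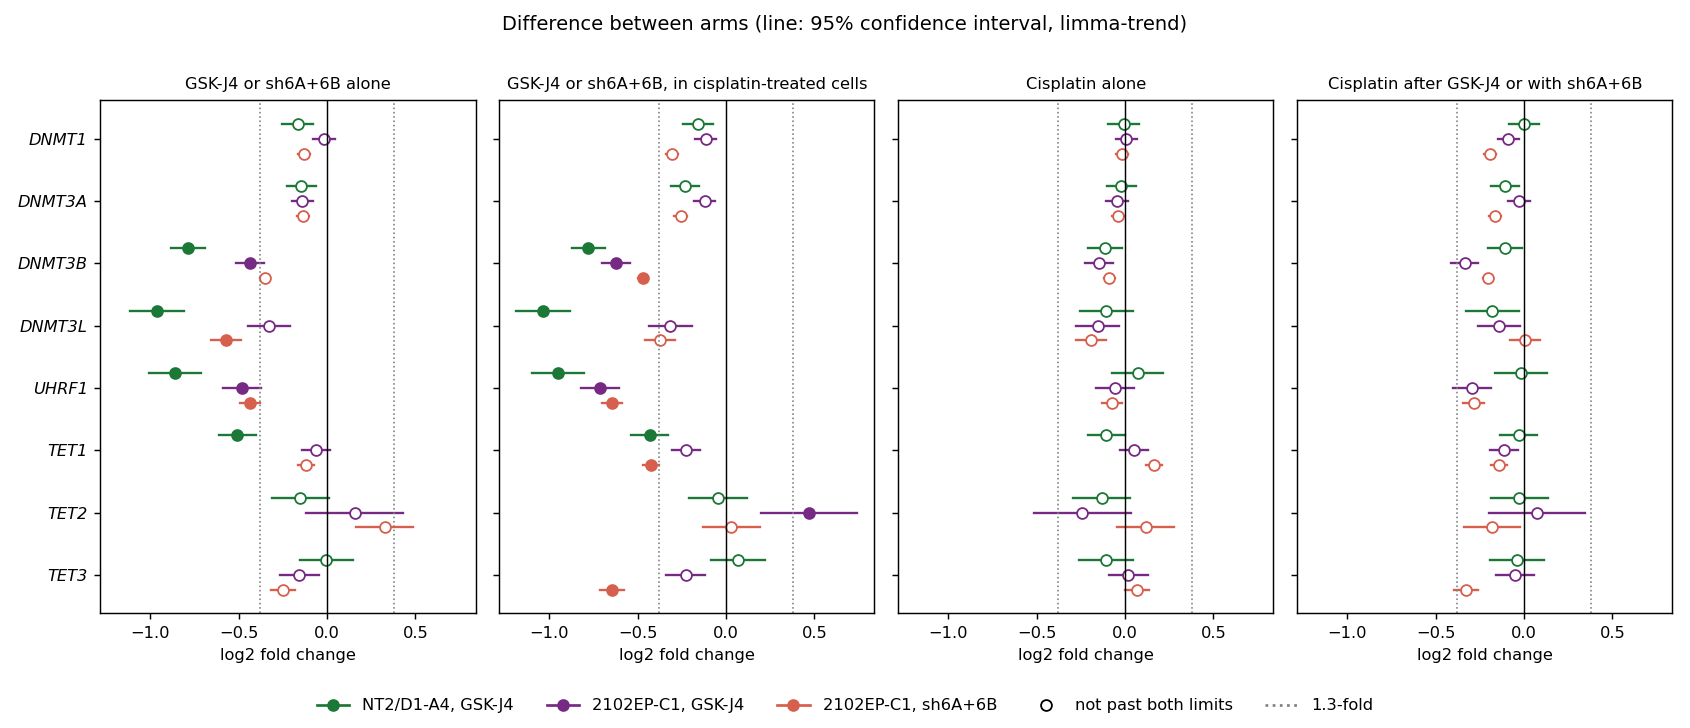
Log2 fold change (horizontal axis) of each gene (vertical axis) in 4 comparisons, 1 per panel, with the 95% confidence interval of limma as a line, a color per experiment, filled points where both limits were passed and dotted lines at 1.3-fold. The filled points lie in the 2 panels of GSK-J4 or sh6A+6B, all at or below -0.43 except TET2 at 0.47 in cisplatin-treated 2102EP-C1 cells.

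The combination was compared with untreated cells of the same file. In NT2/D1-A4 cells DNMT3B, DNMT3L, UHRF1 and TET1 fell, by 0.89, 1.14, 0.88 and 0.54, against 9.56% of all genes that fell. Here 4 of 8 passed. In 2102EP-C1 cells 3 of 8 fell, DNMT3B by 0.77, DNMT3L by 0.47 and UHRF1 by 0.77, against 9.77%. With sh6A+6B and Cisplatin 4 of 8 fell, UHRF1 by 0.72, TET3 by 0.58, DNMT3L by 0.57 and DNMT3B by 0.56, against 7.5%.

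The members under the limits in the combination were mostly lower too. With sh6A+6B and Cisplatin the maintenance enzyme DNMT1 stood at -0.32 ± 0.02 (limma, adjusted p = 5.5e-14), DNMT3A at -0.30 ± 0.02 (adjusted p = 2.0e-13) and TET1 at -0.26 ± 0.02 (adjusted p = 3.1e-10), all short of the fold limit, and TET2 stood at 0.15 ± 0.08 (adjusted p = 0.11). The 2102EP-C1 cells given both agents had DNMT1 at -0.11, DNMT3A at -0.17, TET1 at -0.18, TET2 at 0.23 and TET3 at -0.21. In NT2/D1-A4 the values were DNMT1 at -0.17, DNMT3A at -0.25, TET2 at -0.18 and TET3 at -0.04.

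The deepest DNMT3B values in the 2102EP-C1 files were in the combination arms. They were 10.81, 10.998 and 11.03 log2 CPM after GSK-J4 and Cisplatin and 10.97, 10.999 and 11.001 with sh6A+6B and Cisplatin. All 6 libraries lay below the lowest library of every other arm of their file, 11.27 and 11.19, as was the case for 9.33% and 13.8% of all genes. In NT2/D1-A4 cells the combination values of 9.97, 9.84 and 9.76 overlapped those of GSK-J4 alone.

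Among cisplatin-treated cells, GSK-J4 lowered 4 of 8 genes in NT2/D1-A4, against 7.84% of all genes. DNMT3L fell by 1.04 ± 0.07 (limma, adjusted p = 1.3e-09), UHRF1 by 0.95 ± 0.07 (adjusted p = 2.9e-09), DNMT3B by 0.78 ± 0.05 (adjusted p = 1.1e-10) and TET1 by 0.43 ± 0.05 (adjusted p = 1.1e-06). In 2102EP-C1 cells UHRF1 fell by 0.71 and DNMT3B by 0.62, so 2 of 8 fell against 8.82% of all genes, and TET2 rose, 1 of 8 against 10.5%. TET2 measured 1.37, 1.14 and 0.99 log2 CPM with Cisplatin and 1.51, 1.70 and 1.71 with both agents, without overlap, as for 30.3% of all genes upward, a difference of 0.47 ± 0.13 (adjusted p = 0.0043). The members under the limits were DNMT1 at -0.11, DNMT3A at -0.12, DNMT3L at -0.31, TET1 at -0.23 and TET3 at -0.23 in 2102EP-C1. In NT2/D1-A4 they were DNMT1 at -0.16, DNMT3A at -0.23, TET2 at -0.05 and TET3 at 0.07.

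With sh6A+6B in cisplatin-treated cells 4 of 8 fell, against 8.77% of all genes. UHRF1 fell by 0.64 and DNMT3B by 0.47, as with GSK-J4, and the oxidase genes TET3 and TET1 fell as well, by 0.64 ± 0.03 (limma, adjusted p = 4.0e-14) and 0.43 ± 0.02 (adjusted p = 4.4e-14). TET3 measured 4.998, 4.95 and 5.02 log2 CPM in pLKO.1 cells with Cisplatin and 4.296, 4.34 and 4.41 in sh6A+6B cells with Cisplatin. TET1 measured 8.60, 8.57 and 8.57 against 8.16, 8.09 and 8.21. Neither pair of groups overlapped, a pattern that 32.5% of all genes showed in the same direction. The members under the limits were DNMT1 at -0.31, DNMT3A at -0.26, DNMT3L at -0.37 and TET2 at 0.03. These comparisons share libraries with the preceding ones.

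The interaction asks whether cisplatin acted differently with GSK-J4 or sh6A+6B than without. No member passed in NT2/D1-A4, against 0.0426% of all genes, and none passed in the GSK-J4 experiment on 2102EP-C1, against 0.857%. Both counts were 0 with voom weights in limma, and 0 and 4 of 8 had an unadjusted p under 0.05, against 7.15% and 17.6% of all genes. The nearest there were DNMT3B at -0.19 ± 0.05 (limma, adjusted p = 0.059) and UHRF1 at -0.23 ± 0.07 (adjusted p = 0.09). The rest there were DNMT1 at -0.10, DNMT3A at 0.02, DNMT3L at 0.01, TET1 at -0.16, TET2 at 0.32 and TET3 at -0.07. In NT2/D1-A4 the interaction was DNMT1 at 0.00921, DNMT3A at -0.09, DNMT3B at 0.00725, DNMT3L at -0.07, UHRF1 at -0.09, TET1 at 0.08, TET2 at 0.11 and TET3 at 0.07. In the knockdown experiment 1 of 8 passed, TET3 at -0.39 ± 0.05 (adjusted p = 3.3e-07), against 3.77% of all genes in either direction and 2.67% in the negative one. TET3 was 0.07 higher with cisplatin in pLKO.1 cells and 0.33 lower in sh6A+6B cells. Without replicate 1 of sh6A+6B with Cisplatin the TET3 interaction was -0.37 (adjusted p = 1.8e-06) and no member passed the fold limit.

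By adjusted p alone, all 8 genes had an interaction in the knockdown experiment, against 35.1% of all genes. The value was negative for 7 of them and positive for DNMT3L, at 0.20 ± 0.06 (limma, adjusted p = 0.01). For TET1 it was -0.31 ± 0.03 (adjusted p = 3.0e-08), from a cisplatin difference of 0.17 in pLKO.1 cells and one of -0.14 in sh6A+6B cells. DNMT3L was 0.19 lower with cisplatin in pLKO.1 cells and 0.00462 higher in sh6A+6B cells. The others were DNMT1 at -0.18, DNMT3A at -0.12, DNMT3B at -0.12, UHRF1 at -0.21 and TET2 at -0.30. The knockdown libraries held more reads than any library of the other experiments, and the standard errors were lower there for 7 of the 8 genes, TET2 excepted.

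Limits of 1.2-fold and an adjusted p under 0.001 changed which members passed in 8 of the 18 comparisons, all in 2102EP-C1 cells. With GSK-J4 alone DNMT3L passed too, making 3 of 8 against 9.2% of all genes in either direction. With sh6A+6B alone DNMT3B passed too, making 3 of 8 against 13.7%. In the combination of sh6A+6B and Cisplatin DNMT1 and DNMT3A joined, for 6 of 8 against 21.5%. Among cisplatin-treated cells DNMT1 and DNMT3L joined with sh6A+6B, for 6 of 8 against 20.5%, while with GSK-J4 TET2 was lost and DNMT3L gained, for 3 of 8 against 19.5%. For cisplatin after GSK-J4 DNMT3B and UHRF1 passed, 2 of 8 against 1.36%, and for cisplatin in sh6A+6B cells UHRF1 and TET3 passed, 2 of 8 against 5.3%. In the knockdown interaction TET1 joined TET3, for 2 of 8 against 7.3%.

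UHRF1 was the gene most like DNMT3B. Over 36 libraries centred within their file, among the 12824 genes averaging 1 CPM or more, Pearson's r between them was 0.98, and within the files 0.98, 0.98 and 0.995. The next genes for DNMT3B were FKBP4, a co-chaperone, SNRNP70, a component of the U1 snRNP, WDR82, a subunit of histone methyltransferase and phosphatase complexes, and CCNF, a cyclin, each at 0.97 or 0.98. The libraries of a file share their arms, and these coefficients mostly follow the differences between arms.

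**Figure D4:**
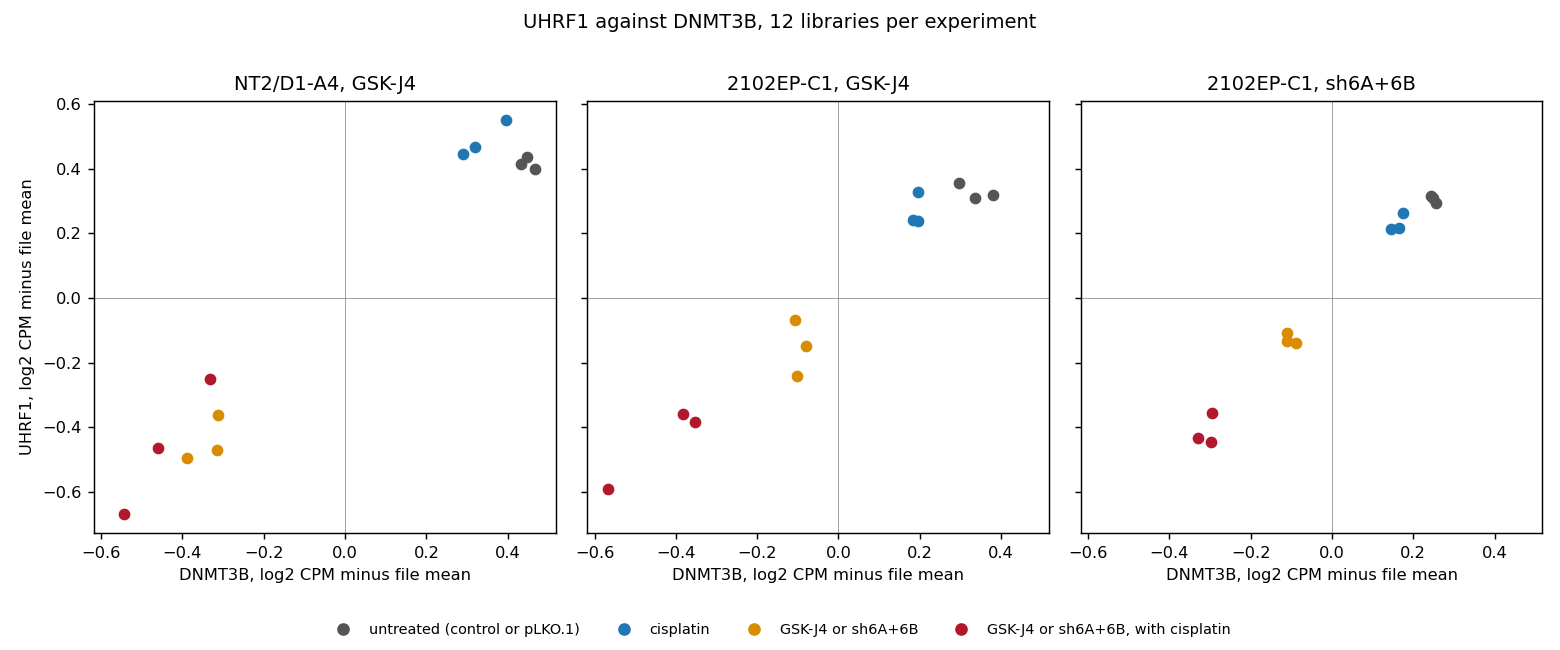
UHRF1 (vertical axis) against DNMT3B (horizontal axis), both as log2 CPM minus the mean of their file, with 1 panel per experiment, 1 point per library and a color per arm. Libraries with GSK-J4 or sh6A+6B lie below 0 on both axes and those without lie above, and r is 0.98, 0.98 and 0.995 from left to right.

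For the other members the most similar genes were TCOF1 and CHD4 for DNMT1 (r = 0.96 and 0.95), TCOF1 and LMNB2 for DNMT3A (0.97 and 0.96), SEMA6B and HMGB3 for DNMT3L (both 0.96), and DNMT3B and TTLL4 for UHRF1 (0.98 and 0.97). Among the TET genes they were ANKRD17 and RIF1 for TET1 (0.98 and 0.97), SH3PXD2A and PLXNA1 for TET3 (both 0.92) and HIF1AN and STK24 for TET2 (0.74 and 0.73). TET2 stood apart from the other members in the 2102EP-C1 files, where it had only 70 to 136 and 194 to 257 reads per library. Its r with DNMT3B was 0.61 in NT2/D1-A4 and -0.59 and -0.53 in the 2102EP-C1 files. For TET3 the r with DNMT3B was -0.02 in NT2/D1-A4 and 0.81 and 0.96 in the 2102EP-C1 files.

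The counts of this and the other gene lists stand beside all genes past the limits in either direction. With GSK-J4 or sh6A+6B alone these were 3332 of 16431, 1858 of 17035 and 1989 of 16459 genes, of which 1065, 531 and 945 fell. In the combination they were 4180, 3849 and 2634, of which 1571, 1664 and 1234 fell. Among cisplatin-treated cells they were 3396, 3295 and 2497, of which 1289, 1503 and 1444 fell. The rest rose, so in both GSK-J4 experiments and all 3 comparisons more genes rose than fell. The partners of the methyltransferases were examined as a list of 17 genes, of which 16 were in each file. In GSK-J4-treated NT2/D1-A4 cells none passed the limits and the median was -0.28. In 2102EP-C1 cells CDCA7, which targets the remodeler HELLS to hemimethylated DNA, fell by 0.54 ± 0.04 with GSK-J4 (limma, adjusted p = 1.8e-10) and by 0.88 ± 0.03 with sh6A+6B (adjusted p = 7.4e-18), with medians of -0.09 and -0.06. DPPA3, which holds UHRF1 off chromatin, fell with sh6A+6B by 0.48 ± 0.02 (adjusted p = 8.8e-16), and PCLAF, a PCNA-binding protein, rose by 0.74 ± 0.11 (adjusted p = 7.1e-06). In the combination 4 fell in NT2/D1-A4 cells, 1 fell and 1 rose with GSK-J4 in 2102EP-C1 cells, and 1 fell and 1 rose with sh6A+6B. Among cisplatin-treated cells the counts were 0, then 1 down and 1 up in each 2102EP-C1 file. With cisplatin alone 1 fell, PCLAF in pLKO.1 cells, and cisplatin in pretreated or knockdown cells and the interaction gave none.

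Of 9 readers of methylated CpG, ZBTB38 rose with GSK-J4 by 0.43 ± 0.04 in NT2/D1-A4 (limma, adjusted p = 7.2e-08) and by 0.52 ± 0.06 in 2102EP-C1 cells (adjusted p = 6.5e-08), and with sh6A+6B none passed. In the combination 1 rose and 1 fell in each GSK-J4 experiment and none passed with sh6A+6B. Among cisplatin-treated cells 2 rose in NT2/D1-A4, 1 rose in 2102EP-C1 and none passed with sh6A+6B, and MBD6 alone fell with cisplatin in sh6A+6B cells. The other comparisons gave none.

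Of 15 partners of the TET enzymes, GADD45A, a stress-induced gene that has been linked to active demethylation, rose with GSK-J4 by 1.08 ± 0.05 in NT2/D1-A4 (limma, adjusted p = 5.0e-12) and by 0.90 ± 0.05 in 2102EP-C1 cells (adjusted p = 8.0e-13). IDH1 and IDH2, which make the TET cosubstrate 2-oxoglutarate, also rose in NT2/D1-A4 cells, by 0.44 and 0.73. In 2102EP-C1 cells the glycosylase gene NEIL1 fell by 0.69 and D2HGDH by 0.59. With sh6A+6B 1 passed, CXXC4, which binds TET2, with a rise of 0.56. In the combination 3 rose and 1 fell, 1 rose and 3 fell, and 2 rose and 1 fell in the 3 experiments. Among cisplatin-treated cells the counts were 3 up, 1 up and 2 down, and 0, and the other comparisons gave none.

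Of 10 genes of the S-adenosylmethionine cycle, which makes the methyl donor, 8 were in each file. BHMT, which remethylates homocysteine, rose with GSK-J4 by 1.81 ± 0.34 in NT2/D1-A4 cells (limma, adjusted p = 0.00024), where its mean level was -1.01 log2 CPM, and by 0.79 ± 0.12 in 2102EP-C1 cells (adjusted p = 6.4e-06). BHMT was so scarce in NT2/D1-A4 that the authors' removal of low-expressed genes may have kept it only through arms where it rose. MAT2A, the enzyme that makes S-adenosylmethionine, fell by 0.56 ± 0.04 in NT2/D1-A4 cells (adjusted p = 6.3e-10). None passed with sh6A+6B. In the combination 1 rose and 1 fell in NT2/D1-A4 cells and 1 rose in each 2102EP-C1 file, and among cisplatin-treated cells 1 rose and 1 fell in both GSK-J4 experiments and none passed with sh6A+6B. The comparisons of cisplatin and the interaction gave none.

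Germline genes whose promoters are methylated in somatic cells are a usual readout of lost methylation. Of 20 such genes 7, 14 and 15 were in the files, and the difference between experiments was not tested. Only 3, 7 and 10 of these averaged over 1 CPM in the untreated arms, so many were scarce. The scarce ones may likewise have been kept by the authors' filter only through an arm where they were high. In NT2/D1-A4 given GSK-J4 4 rose and 1 fell, led by MAEL, a piRNA pathway gene, at 1.79 ± 0.33 (limma, adjusted p = 0.000165) and BRDT, a testis bromodomain gene, at -0.69 ± 0.16 (adjusted p = 0.0015), and the list's median was 0.51. In 2102EP-C1 cells TDRD5 alone rose, by 0.48 ± 0.07 (adjusted p = 9.9e-06), with a median of -0.03. With sh6A+6B 7 fell and 1 rose, led by STK31 at -0.80 ± 0.10 (adjusted p = 3.1e-07) and TEX14 at 0.45 ± 0.13 (adjusted p = 0.0074), with a median of -0.30. The summed level of the list was 9.50 to 10.6 CPM in NT2/D1-A4 Control and 12.8 to 14.7 after GSK-J4. In 2102EP-C1 cells it was 88.3 to 91.5 CPM in Control and 87.9 to 97.9 after GSK-J4, so these groups overlapped. It was 106.7 to 108.1 in pLKO.1 and 84.3 to 88.5 CPM in sh6A+6B cells. In the combination 3 rose and 1 fell, 2 rose and 1 fell, and 1 rose and 7 fell. Among cisplatin-treated cells 2 rose and 1 fell, 1 rose and 3 fell, and 5 fell. TEX14 rose with cisplatin in pLKO.1 cells, MAEL passed in the interaction of the knockdown experiment, and no other comparison gave any.

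The S phase list gave 1 up and 1 down, 5 down, and 1 up and 3 down in the combination, and 1 down, 3 down, and 1 up and 1 down among cisplatin-treated cells, with none in the other comparisons. Of the 10 embryonal carcinoma markers, TDGF1, the Nodal coreceptor, rose by 0.75 ± 0.07 in NT2/D1-A4 given GSK-J4 (limma, adjusted p = 3.1e-08), TNFRSF8, which encodes CD30, rose by 0.40 ± 0.05 with sh6A+6B (adjusted p = 1.0e-06), and none passed with GSK-J4 in 2102EP-C1 cells. In the combination 1 rose and 2 fell, 1 fell, and 0 passed. Among cisplatin-treated cells 1 rose, 1 fell and 0 passed, and the other comparisons gave none. The summed level of this list was 6585 to 6722 CPM in NT2/D1-A4 Control and 5776 to 5948 after GSK-J4, 8300 to 8414 and 7778 to 7987 in 2102EP-C1, and 7967 to 8031 and 8013 to 8137 for pLKO.1 and sh6A+6B. It was lower with GSK-J4, as DNMT3B was, and not with sh6A+6B, and its part in the DNMT3B result was not tested.

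Of the markers of other cell types, PAX6, of neural cells, rose by 1.65 ± 0.34 after GSK-J4 in NT2/D1-A4 (limma, adjusted p = 0.00057) and KIT, of germ cells, fell by 0.40 ± 0.07 (adjusted p = 0.00016), with 4 up and 1 down of 9 measured. AFP, of yolk sac, led 3 rises of 8 in 2102EP-C1 cells, at 1.75 ± 0.36 (adjusted p = 0.00043), and TBXT, of mesoderm, led 4 rises of 7 with sh6A+6B, at 0.73 ± 0.13 (adjusted p = 5.6e-05). AFP and PAX6 stayed low, with mean levels of -2.13 log2 CPM in 2102EP-C1 and -1.47 in NT2/D1-A4 cells. Genes this scarce may have passed the authors' low-expression filter only through the libraries where they were high. Their adjusted p-values are thus no support for a rise. In the combination 5 rose and 1 fell, 3 rose and 1 fell, and 3 rose. Among cisplatin-treated cells 3 rose, 2 rose and 2 fell, and 2 rose. PRDM1 rose with cisplatin alone in 2102EP-C1 cells, HAND1 rose with cisplatin after GSK-J4 in both lines, and KIT fell there in 2102EP-C1 cells. In the interaction KIT passed in the 2102EP-C1 GSK-J4 experiment and DCX in the knockdown experiment, both negative.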

How the data were processed

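RNA from 36 cultures was sequenced by the authors (TruSeq Stranded mRNA, Illumina HiSeq), trimmed with Trimmomatic, aligned to GRCh38.p14 with STAR and assigned to genes with featureCounts. The strand setting is not given in the sources used here. The deposited values are log2 CPM at TMM-scaled library sizes with a prior count of 3, 1 file per experiment. Low-expressed genes had been removed by the authors before deposit. A scarce gene can thus be listed only because of an arm where it was high. Whole reads were recovered from the values: 100% of those under 50 reads came out within 0.05 of a whole number, and reads summed to 26842718 to 100872653 per library. These reads gave depths, CPM per kb, sums and alternatives.

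Gene IDs were named with a RefSeq table of GRCh38.p14, and TDGF1 was found under its current symbol CRIPTO. Lengths and overlaps came from GENCODE. Promoter windows were RefSeq GRCh38.p14 and were found for 7 of the 8 genes.

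Each file was fitted alone with limma (version 3.58.1, R 4.3.3) on the deposited log2 CPM, with group means over 12 libraries and an intensity trend, and 6 contrasts. P-values were adjusted by the Benjamini-Hochberg method over all genes of a file. The limits of a 1.3-fold change and an adjusted p of 0.05 follow the study's methods. The fold changes are on the scale with the prior count, which understates those of scarce genes. The procedure was tried on simulated reads with 200 changed genes per file and the same dispersion for every gene. It recovered 93.5%, 91% and 96% of them, with 8, 4 and 2 false calls. Changes were placed only in well-counted genes and no replicate effect was simulated, so the result does not speak for scarce genes. The alternatives were a filter at a mean log2 CPM of 1, only the groups compared, a replicate block, a prior count of 0.5, scaling to total reads, voom weights, limits of 1.2-fold and 0.001, and leaving out each library in turn.

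The 8 genes and all gene lists were chosen with earlier results of these data known. Every member was described in every comparison. For each list, the counts of genes past the limits were given for all comparisons, and the gene with the largest rise and the largest fall was named with GSK-J4 or sh6A+6B alone. Other genes of the lists named in the text were chosen after their values were seen. The most similar genes were the 5 highest Pearson correlations for DNMT3B and the 2 highest for each other member.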

Additional observations from a re-analysis of the deposited data

Results flagged for a closer look

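In the knockdown experiment the cisplatin difference depended on sh6A+6B for all 8 genes by the adjusted p of the limma interaction term. The interaction was -0.18 for DNMT1, -0.12 for DNMT3A, -0.12 for DNMT3B, -0.21 for UHRF1, -0.31 for TET1, -0.30 for TET2 and -0.39 for TET3, and 0.20 for DNMT3L, on the log2 scale. The background was 35.1% of all genes, and only TET3 passed the fold limit too.

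In a few comparisons every library of an arm lay above all untreated libraries in one experiment and below all of them in another, and the difference between the experiments was not tested. With cisplatin alone this held for 2 of the 8 members between NT2/D1-A4 and pLKO.1 cells, against 3.0% of the 15130 genes in both files, and in the combination for 1 of 8 between NT2/D1-A4 and 2102EP-C1 cells, against 6.45% of 15663 genes. For TET3 with cisplatin alone the log2 difference was -0.11 in NT2/D1-A4 and 0.0676 in pLKO.1 cells. For UHRF1 with cisplatin alone it was 0.0706 in NT2/D1-A4 and -0.0757 in pLKO.1 cells. For TET2 in the combination against untreated cells it was -0.18 in NT2/D1-A4 and 0.23 in 2102EP-C1 cells. Arms of 3 libraries are too small for the outlier screen, which was not run.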

How the results depend on the processing

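The number of members past the limits was unchanged in 116 of 123 recalculations with other settings and in 214 of 216 with 1 library left out. All 7 changes came with limits of 1.2-fold and an adjusted p under 0.001. The count rose from 0 to 2 for cisplatin after GSK-J4 in 2102EP-C1 (DNMT3B and UHRF1), from 0 to 2 for cisplatin in sh6A+6B cells (UHRF1 and TET3), from 1 to 2 for the knockdown interaction (TET1 added), from 2 to 3 for GSK-J4 alone in 2102EP-C1 (DNMT3L) and for sh6A+6B alone (DNMT3B), and from 4 to 6 for the knockdown combination (DNMT1 and DNMT3A) and for sh6A+6B among cisplatin-treated cells (DNMT1 and DNMT3L). The knockdown interaction count ranged from 0 to 1 with a library left out, and was 0 without replicate 1 of sh6A+6B with Cisplatin. Without replicate 2 of the same arm DNMT3L passed for sh6A+6B among cisplatin-treated cells, at -0.41. A replicate block left the count of members at 4, 2 and 2 for GSK-J4 or sh6A+6B alone and unchanged in all other comparisons. Same-numbered libraries correlated over 0.1 in 3, 1 and 5 of 18 pairs, and 5, 2 and 7 of 12 libraries correlated best with their own number. With so few libraries an arm, these values do not settle whether the numbers pair them.

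Of 144 log2 differences, 31 were past the limits and none of these changed sign. A sign change occurred in 18 others, all within 0.0887 of 0. Scaling to total reads gave 0.0154 for DNMT1 and 0.00212 for DNMT3A with cisplatin alone, -0.00914 for DNMT1 and -0.0111 for DNMT3B in the interaction, and 0.00974 in the combination and 0.0432 with GSK-J4 alone for TET3, all in NT2/D1-A4. Voom weights gave 0.00620 for TET3 with GSK-J4 alone. This scaling moved the median of all genes by at most 0.0506.

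With 1 library left out, the ranges in NT2/D1-A4 cells were as follows. With cisplatin alone DNMT1 ranged from -0.0263 to 0.0149. With cisplatin after GSK-J4 DNMT1 ranged from -0.0457 to 0.0490, TET1 from -0.0857 to 0.0215, TET2 from -0.0591 to 0.0150, TET3 from -0.114 to 0.0534 and UHRF1 from -0.123 to 0.0851. In the interaction DNMT1 ranged from -0.0374 to 0.0573, DNMT3B from -0.0497 to 0.0563, TET3 from -0.00486 to 0.162 and UHRF1 from -0.194 to 0.0144. TET3 also ranged from -0.117 to 0.0499 in the combination, from -0.0646 to 0.0589 with GSK-J4 alone and from -0.00840 to 0.159 with GSK-J4 among cisplatin-treated cells. In 2102EP-C1 cells TET2 ranged from -0.0271 to 0.137 with cisplatin after GSK-J4, TET3 from -0.0163 to 0.0719 with cisplatin alone and DNMT3L from -0.0453 to 0.0460 in the GSK-J4 interaction. In sh6A+6B cells DNMT3L ranged from -0.0352 to 0.0478 with cisplatin. The cause of these sign changes was not tested.

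Depth limits TET2 most, with as few as 70 reads in a library, and its 95% confidence interval for GSK-J4 alone in 2102EP-C1 cells was -0.12 to 0.43. With 3 libraries an arm and 1 clone a line, the tests speak of these cultures. RNA levels do not give enzyme activity or methylation.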
